A study of Homo sapiens with 12 samples.

Results

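The genes described are the expressed LINC genes of MCF10-A cells, the long intergenic noncoding RNAs that carry a serial LINC number instead of a functional name. Of 57133 gene names in the count files, 1869 were LINC names and 670 of these had a count in any library. A LINC gene was counted as expressed where its mean level over the 3 libraries of at least 1 group reached 1 CPM (the counts-per-million unit, a gene's counts over the library's total), which 94 genes did. By the same rule 13721 genes of all kinds were expressed. These levels chose the genes, so the levels themselves are given as description and carry no test.

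MCF10-A is a non-tumorigenic human breast epithelial line, here at passages 12-15, and the groups compared 2 inducible cell cycle inhibitors with the fluorescent tag alone. All 12 cultures carried a doxycycline-inducible transgene and received 50 ng/ml doxycycline for 5 days, starting 20 hours after seeding. The groups were mVenus-p16 with Torin2 (p16 with Torin2 below), mVenus-p21 (p21), mVenus-p16 (p16) and mVenus alone (mVenus), with 3 biological replicates each by the series' description. From 24 hours after doxycycline the p16 cells with Torin2 received 100 nM Torin2, an inhibitor of the mTOR kinase, and the other cultures DMSO. No Torin2 was given to mVenus or p21 cells, each group was a bulk culture of 1 line, and the p-values below measure only the spread between these cultures.

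Long noncoding RNAs are transcribed, spliced and polyadenylated like messenger RNAs but encode no long protein, and many are present at low copy and stay in the nucleus. Some act on chromatin or on genes beside them, some bind proteins or microRNAs, a few turned out to encode micropeptides, and most have no known role. A LINC number says only that the gene was annotated away from protein-coding genes: genes with LINC numbers form no family, and they share no sequence or function by name.

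The 12 libraries held 13168749 to 18321114 counts, and the lowest correlation between replicates was 0.994 on a log scale. MKI67, a marker of cycling cells, averaged 51.3 ± 0.88 CPM in p16 cells with Torin2, 3.33 ± 0.43 CPM in p21 cells, 9.78 ± 0.44 CPM in p16 cells and 345.2 ± 17.1 CPM in mVenus cells (SD, n = 3 each). CDKN1A, which encodes p21, averaged 881.9 ± 11.2 CPM in p21 cells and 742.1 ± 11.7 CPM in mVenus cells (SD, n = 3 each), and CDKN2A, which encodes p16, was at 0 counts in all 12 libraries, p16 cells included, so it checks no label. All 12 mammary epithelial markers were expressed, with summed levels of 19910 to 20720 CPM in p16 cells and 11310 to 11850 CPM in mVenus cells. The sums were 10960 to 11280 CPM in p16 cells with Torin2 and 12140 to 12690 CPM in p21 cells. Not every marker was higher in p16 cells. LAMB3 averaged 673.5 CPM in p16 and 2038 CPM in mVenus cells, and ITGA6 381.3 CPM and 407.4 CPM. Of 6 leukocyte markers CD3E and TYROBP were at 0 counts and only CD14 reached 1 CPM; their sum was 13.49 to 16.91 CPM in p16 cells with Torin2, 20.67 to 24.28 CPM in p21, 33.82 to 37.27 CPM in p16 and 13.48 to 18.45 CPM in mVenus cells. Of 5 endothelial markers PECAM1 and KDR reached 1 CPM and none was at 0 in all libraries, with sums of 2.24 to 3.45 CPM in p16 cells with Torin2, 1.76 to 2.71 CPM in p21, 4.28 to 4.73 CPM in p16 and 3.33 to 3.49 CPM in mVenus cells, and PECAM1 fell by 3.18 ± 0.40 with Torin2 against p16 (log2, SE). Of 7 fibroblast markers only DCN and COL1A1 reached 1 CPM. The sum of the 7 was 109.5 to 116.5 CPM in p21 cells against 21.03 to 21.45 CPM in mVenus cells. In p16 cells with Torin2 it was 5.605 to 5.855 CPM, and in p16 cells 6.737 to 7.165 CPM. DCN made up a mean of 108.6 CPM in p21 cells and 11.2 CPM in mVenus cells. COL1A1 went the other way, with means of 3.83 CPM in p21 cells and 9.535 CPM in mVenus cells. What part these differences have in the values of LINC genes was not tested, and in bulk cultures fewer cells of a kind and less RNA per cell cannot be told apart.

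To show where transcription of these genes begins, the start regions of 4 LINC genes follow. They were among the largest changes of a comparison, passed the test in all 4 comparisons, and have a RefSeq start within 500 bases of their GENCODE 29 start. The choice of LINC01615 rests on a log2 fold change of 0.64 in p21 against p16 (adjusted p = 0.039 by edgeR's quasi-likelihood test) whose call was lost in 7 of 12 alternatives, among them DESeq2, the fit of only the 6 libraries compared and leaving out any p21 library, and its call in p21 against mVenus and that of LINC01085 in p16 against mVenus were also lost in some. Each runs from 250 bases before to 50 after the RefSeq start, 5′ to 3′ on the gene's strand, on GRCh38.p14. The windows are chr4:14111718-14112017 for LINC01085 and chr1:159960974-159961273 for LINC01133, on the plus strand, and chr6:169162940-169163239 for LINC01615 and chr14:21206851-21207150 for LINC00641, on the minus strand. Capitals mark matches, on either strand, to CCAAT (the letters of the factor NF-Y), to GGGCGG (of SP1), to TGANTCA (of AP-1) and to TTTGAA (the core of the CHR element of cell cycle genes).
LINC01085: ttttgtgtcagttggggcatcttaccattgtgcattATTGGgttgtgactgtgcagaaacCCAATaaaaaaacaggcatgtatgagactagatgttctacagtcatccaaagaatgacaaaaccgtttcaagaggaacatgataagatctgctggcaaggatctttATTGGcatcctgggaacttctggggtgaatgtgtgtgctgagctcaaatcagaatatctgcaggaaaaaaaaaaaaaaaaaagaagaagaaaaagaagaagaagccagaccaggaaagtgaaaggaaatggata
LINC01133: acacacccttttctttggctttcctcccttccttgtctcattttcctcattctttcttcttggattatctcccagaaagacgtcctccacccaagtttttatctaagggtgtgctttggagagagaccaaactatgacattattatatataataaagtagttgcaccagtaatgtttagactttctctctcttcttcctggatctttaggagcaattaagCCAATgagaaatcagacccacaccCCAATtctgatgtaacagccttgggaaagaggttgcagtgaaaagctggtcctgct
LINC01615: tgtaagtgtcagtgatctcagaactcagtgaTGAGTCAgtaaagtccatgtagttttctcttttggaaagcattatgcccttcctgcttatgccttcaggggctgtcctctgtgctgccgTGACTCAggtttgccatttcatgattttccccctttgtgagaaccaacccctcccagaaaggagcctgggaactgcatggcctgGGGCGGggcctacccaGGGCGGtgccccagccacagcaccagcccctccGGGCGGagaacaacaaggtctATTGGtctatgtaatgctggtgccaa
LINC00641: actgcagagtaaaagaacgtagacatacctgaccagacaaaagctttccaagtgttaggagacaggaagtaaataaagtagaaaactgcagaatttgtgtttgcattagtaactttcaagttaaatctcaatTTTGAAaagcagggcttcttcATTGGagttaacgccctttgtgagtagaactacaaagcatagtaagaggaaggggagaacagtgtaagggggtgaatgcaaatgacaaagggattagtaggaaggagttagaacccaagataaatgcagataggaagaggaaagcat

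LINC01085, LINC01133 and LINC00641 had windows of 39.0%, 41.3% and 39.0% GC, with 3, 2 and 1 matches to CCAAT and none to GGGCGG. The LINC00641 window also held 1 match to TTTGAA. The LINC01615 window had 54.0% GC, with 3 matches to GGGCGG, 2 to TGANTCA and 1 to CCAAT.

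Of the 94 expressed LINC genes, 77 had such a window, 65 of them under the same symbol and 62 within 500 bases of the GENCODE 29 start. For the 11 with several windows the one nearest to that start was used. On both strands CCAAT was in 46.8% of the 77 windows and in 34.6% of all 35116 RefSeq windows, GGGCGG in 53.2% and 45.0%, TGANTCA in 10.4% and 7.71%, the E-box CACGTG in 10.4% and 7.26%, and TATAAA in 10.4% and 11.5%. TTTGAA was in 7.79% of the LINC windows and 15.2% of all, and the E2F letters TTTCCCGC and TTTGGCGC were in 1.30% and 2.60% of the LINC windows and 1.63% and 0.652% of all. A match is a run of letters and no evidence of binding.

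Levels of the 94 genes were low. The median of the mean levels over 12 libraries was 2.31 CPM, with a range of 0.394 to 55.6 CPM, and 17 genes reached 10 CPM. The threshold was passed in all 4 groups by 50 genes, in 3 by 12, in 2 by 15 and in 1 by 17. The 17 that passed in a single group, 7 in p16 with Torin2, 4 in p21, 4 in p16 and 2 in mVenus, were chosen through the group where they were high. Their difference between that group and the others is in part fixed by the choice, so it is given as a description, and their calls add to the counts below without being support for them. Those described further are LINC01703, LINC02009, LINC00324 and LINC01123 (chosen through p16 with Torin2), LINC02593, LINC00968 and LINC01085 (p21), LINC00887, LINC00518 and LINC02178 (p16), and LINC00652 and LINC01775 (mVenus). At the threshold, LINC02001, LINC01123 and LINC01775 were just inside with highest group means of 1.005, 1.02 and 1.03 CPM, and LINC00525, LINC01011 and LINC01186 just outside with 0.988, 0.993 and 0.995 CPM.

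Structure and position varied widely. Exonic length had a median of 2987 bases and ran from 371 bases in LINC01775 to 27605 bases in LINC00511, and 13 genes had a single exonic block. GENCODE 29 typed 75 as lincRNA, 9 as processed transcript, 6 as transcribed pseudogene, 2 as antisense and 2 as bidirectional promoter lncRNA. The genes lay on 23 chromosomes. Their counts are uncertain where another gene has the same sequence. In 8 genes over 30% of the longest transcript matched other genes at 97% identity or more. Among the 8, the longest transcripts of LINC00623 and LINC01123 were matched in full. The gene named for the match was LINC01145 for LINC00623 and LINC01106 for LINC01123, but the share it matches alone is not given. LINC01089, also among the 8, shares 51.3% of its exonic bases with an overlapping gene. Reads were counted without strand, so LINC00294, LINC00513, LINC02381 and LINC02454, each inside the span of a tested gene, may hold reads from its introns.

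Summed over the 94 genes, LINC RNA made up 543.7 to 559.4 CPM in the libraries of p16 with Torin2, 570.2 to 592.1 CPM in p21, 458.7 to 465.2 CPM in p16 and 456.0 to 461.1 CPM in mVenus. The p21 and Torin2 libraries were above all p16 and mVenus libraries, which lay close together. The 3 most counted genes made up 28.0% of the sum in p16 with Torin2, 28.3% in p21, 20.2% in p16 and 24.8% in mVenus.

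**Figure D1:**
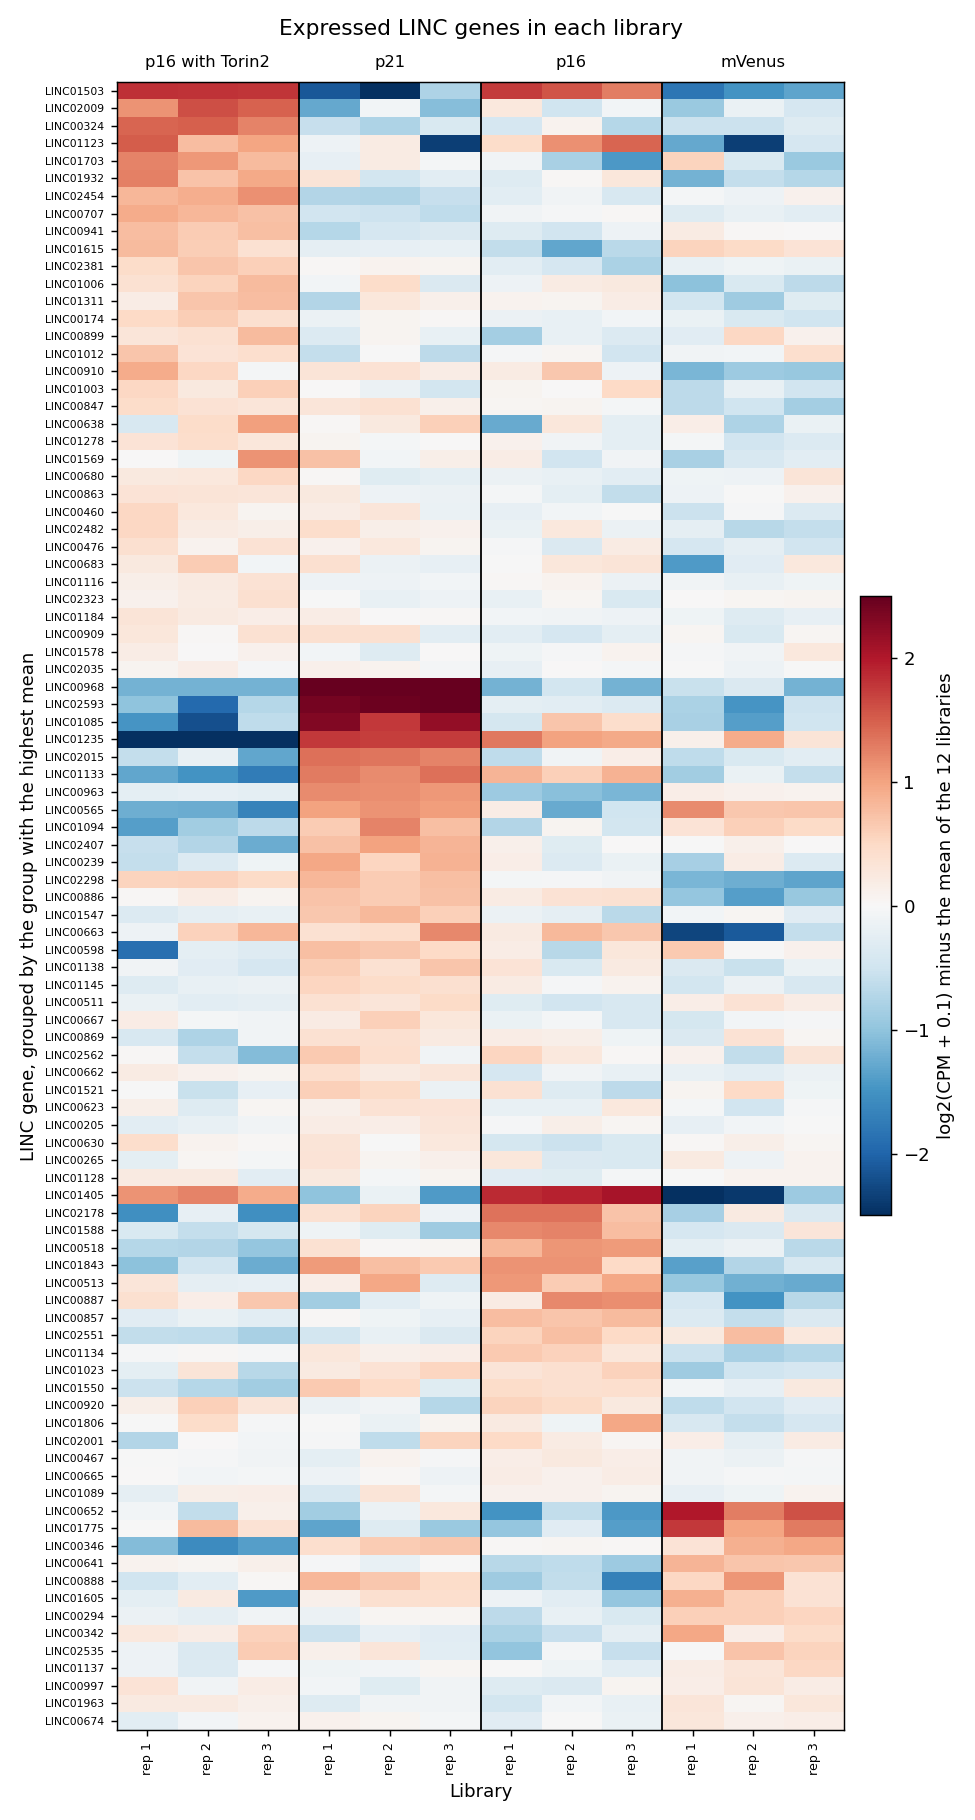
Levels of the 94 expressed LINC genes (down) in the 12 libraries (across), as log2(CPM + 0.1) minus the mean of that gene over the 12 libraries; genes are grouped by the group with their highest mean. LINC01503 stands out in p16 cells with and without Torin2, LINC00968, LINC02593 and LINC01085 in p21 cells, and LINC00652 and LINC01775 in mVenus cells.

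Per kilobase of exon, the highest mean levels over 12 libraries were those of LINC00674 (7.89 CPM per kb), LINC00857 (5.64), LINC00707 (5.11), LINC02454 (5.03), LINC02381 (4.53), LINC01547 (4.30), LINC00963 (4.22), LINC02407 (4.06), LINC01184 (4.01) and LINC00886 (3.59 CPM per kb). The order changed between groups: LINC02454 led in p16 cells with Torin2 at 9.03 CPM per kb, LINC00674 in p21 and mVenus cells at 8.10 and 8.98 CPM per kb, and LINC00857 in p16 cells at 9.06 CPM per kb. LINC00963 was second in p21 cells at 8.05 CPM per kb. LINC00674, annotated as a transcribed pseudogene, had no passing comparison: its log2 fold change in p16 against mVenus was -0.25 ± 0.12 (SE; edgeR's quasi-likelihood test, adjusted p = 0.087).

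The first comparison asks which LINC genes differ after 5 days of p16. LINC01503, LINC01405, LINC01123, LINC00663, LINC00513 and LINC00887 rose by the largest amounts in p16 cells, and LINC00652, LINC01775, LINC00888, LINC00641, LINC00565 and LINC01615 fell by the largest. At an adjusted p under 0.05 by edgeR's quasi-likelihood test 35 of the 94 genes rose (37.2%) and 16 fell (17.0%), where 30.9% of all 14504 genes tested rose and 32.8% fell. In all 54.3% of the LINC genes passed, against 63.7% of all genes and 65.9% of the 13700 tested genes that met the same level rule. Changes of 2-fold or more were called in 21 genes upwards and 9 downwards, or 31.9% of LINC genes against 16.5% of all genes, and 8 of them were chosen through a single group. The median log2 fold change was 0.28 over the LINC genes and -0.00364 over all genes tested. What part the low levels of the LINC genes have in these shares was not tested, here or in the comparisons below. Where groups are said not to overlap, this describes genes picked mostly for large passing changes and adds no support. The share of all genes without such overlap is not given.

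LINC01503, which lies at chr9:129332300-129359538 and is known as a squamous cancer lncRNA driven by the transcription factor p63, was at 8.73, 7.74 and 6.28 CPM in p16 cells and 0.655, 0.835 and 0.967 CPM in mVenus cells. The groups were far apart. Its log2 fold change was 3.31 ± 0.25 (SE; edgeR's quasi-likelihood test, adjusted p = 4.5e-10). TP63, the gene of p63 and one of the epithelial markers, averaged 36.05 ± 2.11 CPM in p16 cells and 5.39 ± 0.46 CPM in mVenus cells (SD, n = 3 each), a log2 fold change of 2.86 ± 0.10 (SE). Whether TP63 has a part in the level of LINC01503 was not tested.

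LINC01405 lies at chr12:110936585-110958208, its start 15863 bases from that of MYL2, a regulatory light chain of cardiac and slow muscle myosin, on the opposite strand. It was at 3.31, 3.45 and 3.79 CPM in p16 cells and 0, 0.0759 and 0.398 CPM in mVenus cells. All p16 libraries were above all mVenus libraries, and the mVenus libraries were near the counting floor. Its log2 fold change was 4.47 ± 0.43 (SE; edgeR's quasi-likelihood test, adjusted p = 1.7e-08), and 6.56 without mVenus replicate 3. MYL2 changed by 4.54 ± 0.20 on the same scale (SE).

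Other rises came at low levels. LINC00513, whose span holds the genes of MIR29A and MIR29B1 on the other strand, was at 3.01, 2.17 and 2.75 CPM in p16 cells and 0.655, 0.532 and 0.512 CPM in mVenus cells, without overlap, a log2 fold change of 2.31 ± 0.33 (SE). LINC00663 was at 0.783, 1.22 and 1.11 CPM in p16 cells and 0.0546, 0.0759 and 0.398 CPM in mVenus cells. Its log2 fold change of 2.55 ± 0.52 (SE) became 3.96 without mVenus replicate 3, the highest of its group. LINC00887 was at 0.723, 1.53 and 1.5 CPM in p16 cells and 0.437, 0.152 and 0.341 CPM in mVenus cells. It rose by 2.02 ± 0.39 on the log2 scale (SE), a rise in part set by its choice through p16 cells alone. Other genes match the full length of the longest transcript of LINC01123. LINC01123 was at 0.602, 1.02 and 1.31 CPM in p16 cells and 0.109, 0 and 0.284 CPM in mVenus cells. It rose by 2.81 ± 0.64 on the log2 scale (SE), or 3.88 without mVenus replicate 3.

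Better measured rises were smaller. LINC00857, which starts 2138 bases from the annexin gene ANXA11, was at 19.9, 18.9 and 20.1 CPM in p16 cells and 9.17, 7.59 and 9.05 CPM in mVenus cells. Its log2 fold change was 1.29 ± 0.08 (SE; edgeR's quasi-likelihood test, adjusted p = 3.9e-11). LINC00886 was at 14.3, 16.1 and 16.2 CPM in p16 cells and 6.28, 4.71 and 6.37 CPM in mVenus cells, a log2 fold change of 1.51 ± 0.10 (SE). Neither pair of groups overlapped.

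LINC00652 and LINC01775 had the largest falls. LINC00652 was at 0.0602, 0.192 and 0.0654 CPM in p16 cells and 1.69, 0.987 and 1.25 CPM in mVenus cells, a log2 fold change of -3.46 ± 0.48 (SE) that was -4.14 without p16 replicate 2. LINC01775, near the lamin gene LMNB2, was at 0.120, 0.256 and 0.0654 CPM in p16 cells and 1.36, 0.759 and 0.967 CPM in mVenus cells, a log2 fold change of -2.67 ± 0.47 (SE), and -3.27 without p16 replicate 2. Both passed the level threshold through mVenus cells, so a difference from another group was built into their choice.

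Falls at higher levels included those of LINC00641, LINC00888 and LINC00963. LINC00641 was at 3.67, 3.84 and 3.14 CPM in p16 cells and 10.8, 9.72 and 9.56 CPM in mVenus cells, without overlap, and fell by 1.39 ± 0.12 on the log2 scale (SE; edgeR's quasi-likelihood test, adjusted p = 2.1e-09). LINC00888, a small nucleolar RNA host gene now named SNHG33, was at 1.69, 2.05 and 0.916 CPM in p16 cells and 4.58, 6.99 and 4.15 CPM in mVenus cells, a log2 fold change of -1.62 ± 0.25 (SE). LINC00963 was at 25.6, 23.3 and 21.7 CPM in p16 cells and 53.5, 51.5 and 51.2 CPM in mVenus cells, a log2 fold change of -1.04 ± 0.06 (SE). In each of these 3 genes every p16 library was below every mVenus library. LINC00565, now SWINGN, an RNA that binds the SWI/SNF complex and is known to act on GAS6, was at 1.2, 0.384 and 0.72 CPM in p16 cells and 2.51, 1.75 and 1.76 CPM in mVenus cells, and fell by 1.27 ± 0.30 on the log2 scale (SE). LINC01615 was at 1.08, 0.639 and 1.05 CPM in p16 cells and 2.56, 2.43 and 2.22 CPM in mVenus cells, and fell by 1.26 ± 0.23 (log2, SE).

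**Figure D2:**
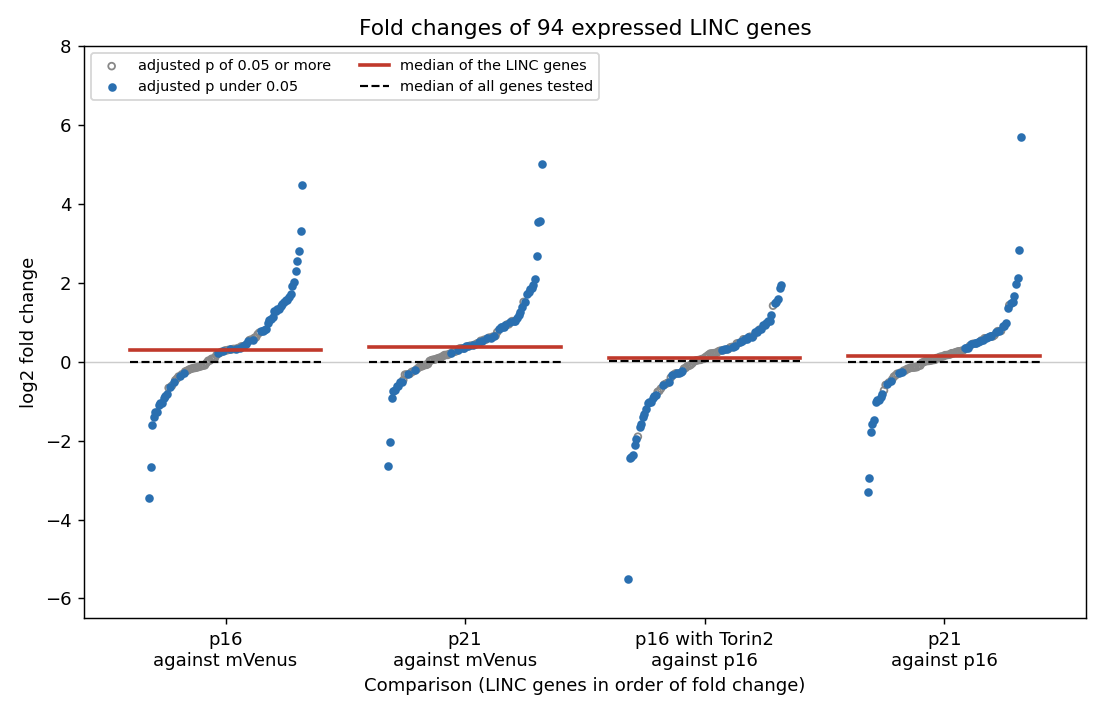
Log2 fold changes of the 94 expressed LINC genes in each of 4 comparisons, in order of size; filled points had an adjusted p under 0.05 by edgeR's quasi-likelihood test, red lines are LINC medians and dashed lines the medians of all 14504 genes tested. LINC medians were 0.28 for p16 and 0.37 for p21 against mVenus, 0.09 for Torin2 and 0.15 for p21 against p16; the highest point of p21 against p16 and the lowest of the Torin2 comparison are fitted values of LINC00968 and LINC01235, which rest on 1 and 3 counts in their lower group.

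The second comparison, p21 against mVenus, uses the same mVenus libraries as the first, so the 2 sets of values are not independent. LINC00968, LINC02593, LINC01085, LINC00663, LINC02298 and LINC01133 rose by the largest amounts in p21 cells, and LINC01775, LINC00652, LINC00342, LINC00641, LINC02551 and LINC01615 fell by the largest. By edgeR's quasi-likelihood test 35 LINC genes rose (37.2%) and 11 fell (11.7%), where 28.2% of all genes tested rose and 28.3% fell. In all 48.9% of the LINC genes passed, against 56.4% of all genes and 58.6% of those under the same level rule. Changes of 2-fold or more were called in 17 genes upwards and 2 downwards, or 20.2% of LINC genes against 12.2% of all genes, and 5 of them were chosen through a single group. The median log2 fold change was 0.37 over the LINC genes and -0.00371 over all genes.

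LINC00963, a lncRNA described in prostate cancer, lies at chr9:129483451-129513686. It was at 109.2, 107.8 and 101.3 CPM in p21 cells and 53.5, 51.5 and 51.2 CPM in mVenus cells, groups without overlap, and rose by 1.10 ± 0.05 on the log2 scale (SE; edgeR's quasi-likelihood test, adjusted p = 1.1e-13). In p16 cells it fell, so its direction against mVenus was opposite for the 2 inhibitors.

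LINC02593, at chr1:916865-921016 beside SAMD11, was at 5.79, 6.02 and 6.28 CPM in p21 cells and 0.546, 0.304 and 0.683 CPM in mVenus cells, a log2 fold change of 3.57 ± 0.25 (SE). It reached the level threshold in p21 cells alone, so a higher p21 value was built into its choice. In p16 cells it was at 0.843, 0.831 and 0.785 CPM, and its log2 fold change against mVenus was 0.74 ± 0.34 (SE; adjusted p = 0.064 by edgeR's quasi-likelihood test). LINC00968, which also reached the threshold in p21 cells alone, was at 1.54, 1.17 and 1.82 CPM in p21 cells and 0.0546, 0.0759 and 0 CPM in mVenus cells. That is 69 counts in p21 cells against 2 in mVenus cells, a ratio of 36.9 after scaling by library totals, with an exact 95% interval of 9.84 to 311.0 that covers counting error only. Its counts were 0 in the 3 libraries of p16 with Torin2, which allows up to 0.0648 CPM over the group, and 1 in those of p16.

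LINC01085, annotated as a transcribed processed pseudogene, was at 2.20, 1.48 and 2.01 CPM in p21 cells and 0.164, 0.0759 and 0.228 CPM in mVenus cells, and rose by 3.54 ± 0.44 on the log2 scale (SE). LINC02298 was at 5.64, 4.92 and 5.34 CPM in p21 cells and 1.36, 1.29 and 1.2 CPM in mVenus cells, and rose by 2.11 ± 0.16 (log2, SE; edgeR's quasi-likelihood test, adjusted p = 5.7e-10). LINC01133, which has been described in squamous lung cancer and in epithelial-mesenchymal transition, was at 10.4, 9.53 and 11 CPM in p21 cells and 2.24, 3.72 and 2.73 CPM in mVenus cells, and rose by 1.93 ± 0.15 (log2, SE). All 3 had p21 libraries above every mVenus library. LINC01085 reached the level threshold in p21 cells alone, so its separation from mVenus cells is in part set by its choice. In p16 cells LINC02298 and LINC01133 rose by 1.33 ± 0.17 and 1.46 ± 0.16 (log2, SE), and LINC01085 by 1.57 ± 0.57 with a call lost under DESeq2 and without p16 replicate 2 or 3 or mVenus replicate 1 or 2.

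LINC00886 was at 20.4, 19.4 and 20.8 CPM in p21 cells and 6.28, 4.71 and 6.37 CPM in mVenus cells, a log2 fold change of 1.85 ± 0.10 (SE). LINC00663 had 0.879, 0.922 and 1.63 CPM in p21 cells, a log2 fold change of 2.67 ± 0.51 (SE), and 4.08 without mVenus replicate 3. LINC01547, which starts 97 bases from FAM207A, was at 17.3, 19.1 and 16.5 CPM in p21 cells and 10.3, 11.3 and 8.93 CPM in mVenus cells, a log2 fold change of 0.87 ± 0.11 (SE). These 3 genes had no overlap between the groups.

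LINC01775 and LINC00652 fell with p21 as well, to 0.0733, 0.246 and 0.126 CPM and to 0.146, 0.307 and 0.440 CPM, with log2 fold changes of -2.65 ± 0.47 and -2.03 ± 0.39 against mVenus (SE). LINC00641 was at 5.86, 5.22 and 5.97 CPM in p21 cells, between its p16 and mVenus levels, and fell by 0.75 ± 0.11 on the log2 scale (SE). LINC00342, with 31.1% of its longest transcript copied elsewhere, was at 0.659, 0.861 and 0.817 CPM in p21 cells and 2.07, 1.14 and 1.42 CPM in mVenus cells, a log2 fold change of -0.93 ± 0.29 (SE) whose call was lost under DESeq2 and without mVenus replicate 1. LINC02551 was at 1.10, 1.35 and 1.19 CPM in p21 cells and 1.86, 2.73 and 1.88 CPM in mVenus cells, a log2 fold change of -0.72 ± 0.23 (SE) whose call was lost under DESeq2 and without mVenus replicate 2. LINC01615 was at 1.47, 1.48 and 1.51 CPM in p21 cells, a log2 fold change of -0.62 (adjusted p = 0.019 by edgeR's quasi-likelihood test) whose call was lost under DESeq2, with no low-count filter and without mVenus replicate 1. LINC01503 did not pass: it was at 0.513, 0.369 and 1.45 CPM in p21 cells, and its log2 fold change against mVenus was 0.01 ± 0.39 (SE, adjusted p = 0.98), or -0.83 without p21 replicate 3. TP63 averaged 4.42 ± 0.60 CPM in p21 cells (SD, n = 3).

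**Figure D3:**
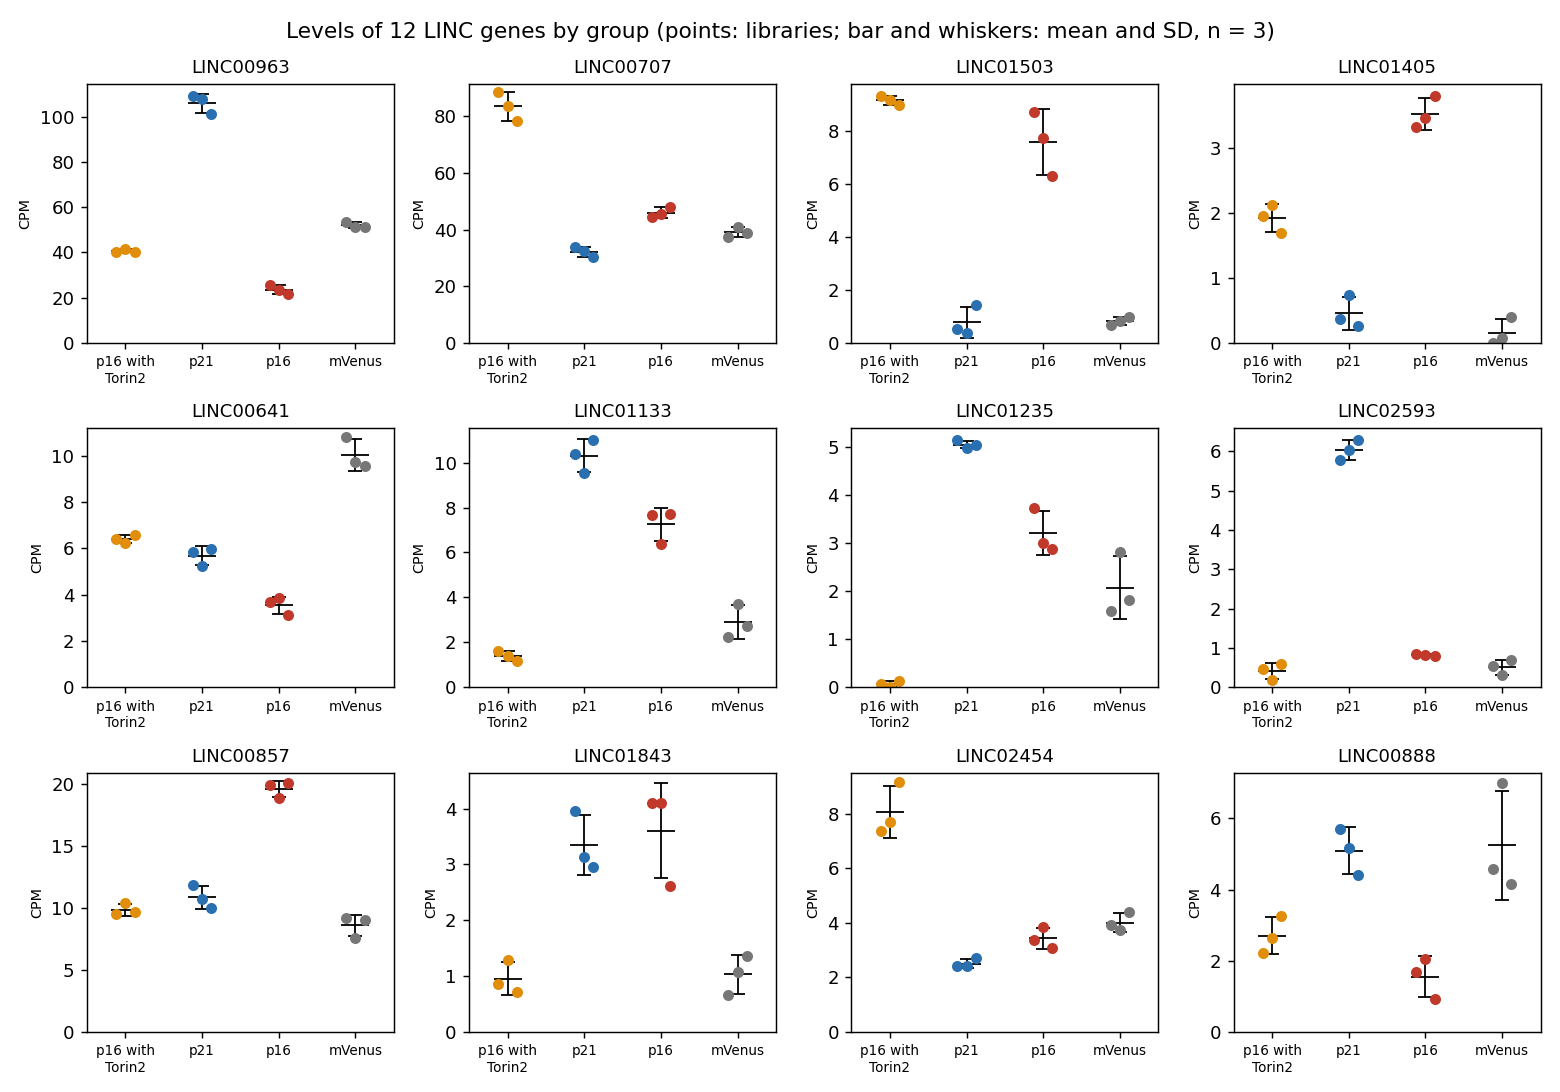
Levels in CPM (y axis, linear and from 0) of 12 LINC genes in the 4 groups; points are libraries, bars and whiskers the mean and SD of 3 libraries. LINC00963 was at a mean of 106.1 CPM in p21 and 23.5 CPM in p16 cells, LINC00707 at 83.5 CPM with Torin2, and LINC01503 at 6.28 to 9.32 CPM in both p16 groups and at no more than 1.45 CPM in p21 and mVenus.

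The third comparison asks what Torin2 does in p16 cells. LINC01703, LINC00324, LINC01775, LINC02009, LINC01615 and LINC02454 rose by the largest amounts in p16 cells with Torin2, and LINC01235, LINC02178, LINC01133, LINC01085, LINC00518 and LINC01843 fell by the largest. Of 94 LINC genes 26 rose (27.7%) and 24 fell (25.5%) by edgeR's quasi-likelihood test, where 30.3% of all genes tested rose and 29% fell. In all 53.2% of the LINC genes passed, against 59.3% of all genes and 61.7% of those under the same level rule. Changes of 2-fold or more were called in 8 genes upwards and 14 downwards, 23.4% of LINC genes against 11.1% of all genes, and 9 of them were chosen through a single group. The median log2 fold change was 0.09 over the LINC genes and 0.02 over all genes. MKI67 was 2.35 ± 0.07 higher on the log2 scale with Torin2 than in p16 cells without it (SE), and its part in these values was not tested.

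LINC01235, at chr9:13406380-13433053, was almost lost. It was at 0.0652, 0 and 0.130 CPM in p16 cells with Torin2 and 3.73, 3.0 and 2.88 CPM in p16 cells, or 3 counts against 153. The p16 level was 49.7 times that with Torin2, with an exact 95% interval of 16.7 to 243.6 that covers counting error only. LINC01133 was at 1.63, 1.41 and 1.17 CPM in p16 cells with Torin2 and 7.65, 6.39 and 7.72 CPM in p16 cells, a log2 fold change of -2.40 ± 0.18 (SE; edgeR's quasi-likelihood test, adjusted p = 6.4e-10). LINC01133 with Torin2 was also below its 3 mVenus libraries. LINC02178 was at 0.196, 0.641 and 0.195 CPM in p16 cells with Torin2 and 2.11, 2.11 and 1.31 CPM in p16 cells. Its log2 fold change was -2.43 ± 0.40 (SE), or -3.23 without Torin2 replicate 2. It reached the level threshold in p16 cells alone, so this fall is in part set by its choice. LINC01085 was at 0.0652, 0 and 0.195 CPM with Torin2 and 0.241, 0.639 and 0.523 CPM in p16 cells, a log2 fold change of -2.36 ± 0.66 (SE), or -3.59 without Torin2 replicate 3.

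LINC01843 was at 0.847, 1.28 and 0.716 CPM in p16 cells with Torin2 and 4.09, 4.09 and 2.62 CPM in p16 cells, and fell by 1.96 ± 0.27 on the log2 scale (SE). LINC00518, which starts 15215 bases from TFAP2A, was at 0.326, 0.321 and 0.260 CPM with Torin2 and 1.14, 1.41 and 1.37 CPM in p16 cells, and fell by 2.12 ± 0.32 (log2, SE). LINC01588 was at 1.56, 1.35 and 1.5 CPM with Torin2 and 4.88, 5.05 and 3.60 CPM in p16 cells, and fell by 1.66 ± 0.23 (log2, SE). All 3 had risen in p16 cells against mVenus, by 1.92 ± 0.27, 1.63 ± 0.29 and 1.34 ± 0.22 on the log2 scale (SE). The p16 libraries enter both comparisons, so opposite signs in them are not independent. LINC00518 reached the level threshold in p16 cells alone, so both its rise and its fall are in part set by its choice.

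LINC00857 was at 9.52, 10.4 and 9.69 CPM in p16 cells with Torin2, against 19.9, 18.9 and 20.1 CPM in p16 cells, a log2 fold change of -1.03 ± 0.08 (SE; edgeR's quasi-likelihood test, adjusted p = 1.4e-09). LINC02551 was at 0.978, 0.962 and 0.846 CPM with Torin2 and 2.35, 2.69 and 2.22 CPM in p16 cells, a log2 fold change of -1.41 ± 0.23 (SE). LINC00346, also named PRECSIT and known as a p53-regulated activator of STAT3 in squamous carcinoma, was at 0.587, 0.385 and 0.455 CPM with Torin2 and 1.39, 1.41 and 1.37 CPM in p16 cells, and fell by 1.57 ± 0.30 on the log2 scale (SE). None of these groups overlapped.

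LINC00707, LINC00941 and LINC02381 rose with Torin2 and had high counts. LINC00707, at chr10:6779549-6879450, was at 88.6, 83.6 and 78.3 CPM in p16 cells with Torin2 and 44.3, 45.6 and 48.1 CPM in p16 cells, and rose by 0.82 ± 0.05 on the log2 scale (SE; edgeR's quasi-likelihood test, adjusted p = 6.0e-11). LINC00941, described as a suppressor of epidermal differentiation, was at 25.0, 22.8 and 24.5 CPM with Torin2 and 11.6, 10.5 and 13.4 CPM in p16 cells, and rose by 0.98 ± 0.09 (log2, SE). LINC02381, inside the span of SMUG1, was at 13.9, 16.2 and 15.3 CPM with Torin2 and 8.31, 7.48 and 5.76 CPM in p16 cells, and rose by 1.03 ± 0.11 (log2, SE). Every Torin2 library of these 3 genes was above every library of the other 3 groups.

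LINC02454 was at 7.37, 7.69 and 9.17 CPM with Torin2 and 3.37, 3.84 and 3.07 CPM in p16 cells, and rose by 1.19 ± 0.14 on the log2 scale (SE). The nearest protein-coding gene tested, HMGA2, an architectural chromatin protein whose start is 221262 bases away on the same strand, rose by 2.38 ± 0.08 (log2, SE). LINC00324, whose start is 13443 bases from that of the mitotic kinase gene AURKB, was at 1.82, 1.86 and 1.56 CPM with Torin2 and 0.421, 0.639 and 0.327 CPM in p16 cells, and rose by 1.86 ± 0.29 (log2, SE). The rise of LINC00324 is in part set by its choice, as it reached the level threshold with Torin2 alone. AURKB rose by 1.90 ± 0.24 (log2, SE) with Torin2. Its mean in mVenus cells, 18 CPM, was far higher than in any other group, while LINC00324 was at 0.380 to 0.455 CPM there.

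LINC02009 was at 2.35, 3.33 and 3.06 CPM with Torin2 and 1.26, 0.703 and 0.981 CPM in p16 cells, a log2 fold change of 1.51 ± 0.29 (SE). LINC01703 was at 1.37, 1.22 and 0.976 CPM with Torin2 and 0.482, 0.256 and 0.131 CPM in p16 cells, a log2 fold change of 1.95 ± 0.43 (SE). LINC01615 was at 3.06, 2.69 and 2.28 CPM with Torin2 and 1.08, 0.639 and 1.05 CPM in p16 cells, a log2 fold change of 1.49 ± 0.23 (SE). The groups did not overlap in these 3 genes, but LINC02009 and LINC01703 reached the level threshold with Torin2 alone, so their separation from p16 cells is in part set by their choice. LINC01775 rose by 1.6 ± 0.55 (log2, SE; adjusted p = 0.017 by edgeR's quasi-likelihood test), a call lost without p16 replicate 1, p16 replicate 3 or Torin2 replicate 2 and under DESeq2.

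LINC00641 and LINC00963, lower in p16 than in mVenus cells, were higher with Torin2. LINC00641 was at 6.39, 6.22 and 6.57 CPM with Torin2 and 3.67, 3.84 and 3.14 CPM in p16 cells, and LINC00963 at 40.4, 41.5 and 40.3 CPM with Torin2 and 25.6, 23.3 and 21.7 CPM in p16 cells. Their log2 fold changes were 0.81 ± 0.13 and 0.75 ± 0.06 (SE), and both stayed below all mVenus libraries. LINC01503 did not pass: levels of 9.32, 9.17 and 8.98 CPM with Torin2 gave a log2 fold change of 0.23 ± 0.17 against p16 (SE, adjusted p = 0.27), while TP63 rose by 1.07 ± 0.06 (log2, SE).

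The fourth comparison sets p21 against p16 directly and tests where the 2 inhibitors differ. LINC00968, LINC02593, LINC00963, LINC01085, LINC00888 and LINC00565 were higher in p21 cells by the largest amounts, and LINC01503, LINC01405, LINC01123, LINC01588, LINC00887 and LINC02551 lower. By edgeR's quasi-likelihood test 26 LINC genes were higher (27.7%) and 14 lower (14.9%) in p21 cells, where 27.2% of all genes tested were higher and 27.2% lower. In all 42.6% of the LINC genes passed, against 54.3% of all genes and 56.4% of those under the same level rule. Differences of 2-fold or more were called in 8 genes upwards and 6 downwards, 14.9% of LINC genes against 11.2% of all, and 6 of them were chosen through a single group. The median log2 fold change was 0.15 over LINC genes and -0.01 over all genes.

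LINC00963 was 2.13 ± 0.06 higher in p21 than in p16 cells on the log2 scale (SE; edgeR's quasi-likelihood test, adjusted p = 2.3e-17), with libraries of 101.3 to 109.2 CPM in p21 cells and 21.7 to 25.6 CPM in p16 cells. LINC01503 was 3.30 ± 0.26 lower (log2, SE; adjusted p = 1.2e-09 by the same test), and its log2 fold change was -4.14 without p21 replicate 3. TP63 was 3.06 ± 0.10 lower (log2, SE). LINC00963 and LINC01503 lie on the same arm of chromosome 9, with their starts 151151 bases apart, and differed between the inhibitors in opposite directions.

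LINC02593 was higher by 2.83 ± 0.23 and its neighbour SAMD11 by 2.56 ± 0.20 (log2, SE). The value of LINC02593 is in part set by its choice through p21 cells alone. LINC01405 was lower by 2.96 ± 0.36 and MYL2 by 2.83 ± 0.16 (log2, SE). LINC00888 was at 5.71, 5.16 and 4.40 CPM in p21 cells and 1.69, 2.05 and 0.916 CPM in p16 cells, and was higher by 1.67 ± 0.25 (log2, SE); against mVenus its p21 value was 0.05 ± 0.21 (SE, adjusted p = 0.86 by edgeR's quasi-likelihood test). LINC00565 was at 2.20, 2.40 and 2.26 CPM in p21 cells and 1.2, 0.384 and 0.72 CPM in p16 cells, and was higher by 1.51 ± 0.30 (log2, SE), with 0.25 ± 0.25 for p21 against mVenus (SE, adjusted p = 0.43). In both genes every p21 library was above every p16 library.

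LINC01123 was at 0.366, 0.492 and 0 CPM in p21 cells, a log2 fold change of -1.78 ± 0.57 against p16 (SE) that was -1.19, and not called, without p21 replicate 3. LINC00887 was lower in p21 cells by 1.47 ± 0.37 and LINC01588 by 1.59 ± 0.23 (log2, SE). The value of LINC00887 is in part set by its choice through p16 cells alone. HES1, a repressor in the Notch pathway and the nearest coding gene to LINC00887 at 176658 bases, was lower by 2.36 ± 0.08 (log2, SE). Against mVenus HES1 fell with p21 by 0.70 ± 0.09 (log2, SE), while LINC00887 had a value of 0.55 ± 0.48 (SE, adjusted p = 0.34 by edgeR's quasi-likelihood test). LINC00511, a lncRNA studied in breast cancer and with the longest exonic sequence of the 94, was at 17.0, 16 and 18.1 CPM in p21 cells and 10.5, 9.27 and 9.81 CPM in p16 cells, without overlap, and was higher by 0.75 ± 0.08 (log2, SE).

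Of the remaining LINC genes with a described role, LINC00467, which encodes a mitochondrial micropeptide, was at 15.1, 15.9 and 15.2 CPM in p16 cells and 12.7, 12.1 and 13.2 CPM in mVenus cells, a log2 fold change of 0.39 ± 0.08 (SE). LINC01116 passed no comparison: its 12 libraries lay between 4.94 and 7.22 CPM, with log2 fold changes of 0.22, 0.08, 0.21 and -0.14 for p16, p21, Torin2 and p21 against p16. LINC00520, LINC00472 and LINC00958, also studied in cancer, were below the threshold with highest group means of 0.691, 0.401 and 0.0419 CPM.

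Beyond the numbered LINC genes, 12 of 16 listed lncRNAs with names of their own were tested. Of these 7 rose and 1 fell in p16 against mVenus, and 7 and 2 in p21 against mVenus. With Torin2 6 rose and 2 fell, and in p21 against p16 1 was higher and 5 lower. Of all genes tested 63.7%, 56.4%, 59.3% and 54.3% passed in the same 4 comparisons. Whether the named lncRNAs differ from these shares was not tested. GAS5, a snoRNA host gene, averaged 463.0 ± 7.5 CPM in p16 cells with Torin2, 106.7 ± 1.2 CPM in p21 cells, 127.8 ± 3.4 CPM in p16 cells and 55.4 ± 2.8 CPM in mVenus cells (SD, n = 3 each). MIR205HG, host of the epithelial microRNA miR-205, averaged 465.1 ± 10.9 CPM in p16 cells with Torin2, 205.5 ± 4.5 CPM in p21 cells, 229.5 ± 13.2 CPM in p16 cells and 39.0 ± 1.6 CPM in mVenus cells (SD, n = 3 each). CYTOR fell against mVenus, by 0.73 ± 0.14 in p16 and 0.76 ± 0.14 in p21 cells (log2, SE). DANCR fell by 0.26 ± 0.08 in p21 against mVenus and by 0.52 ± 0.07 with Torin2, and rose by 0.41 ± 0.07 in p16 against mVenus (log2, SE).

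**Figure D4:**
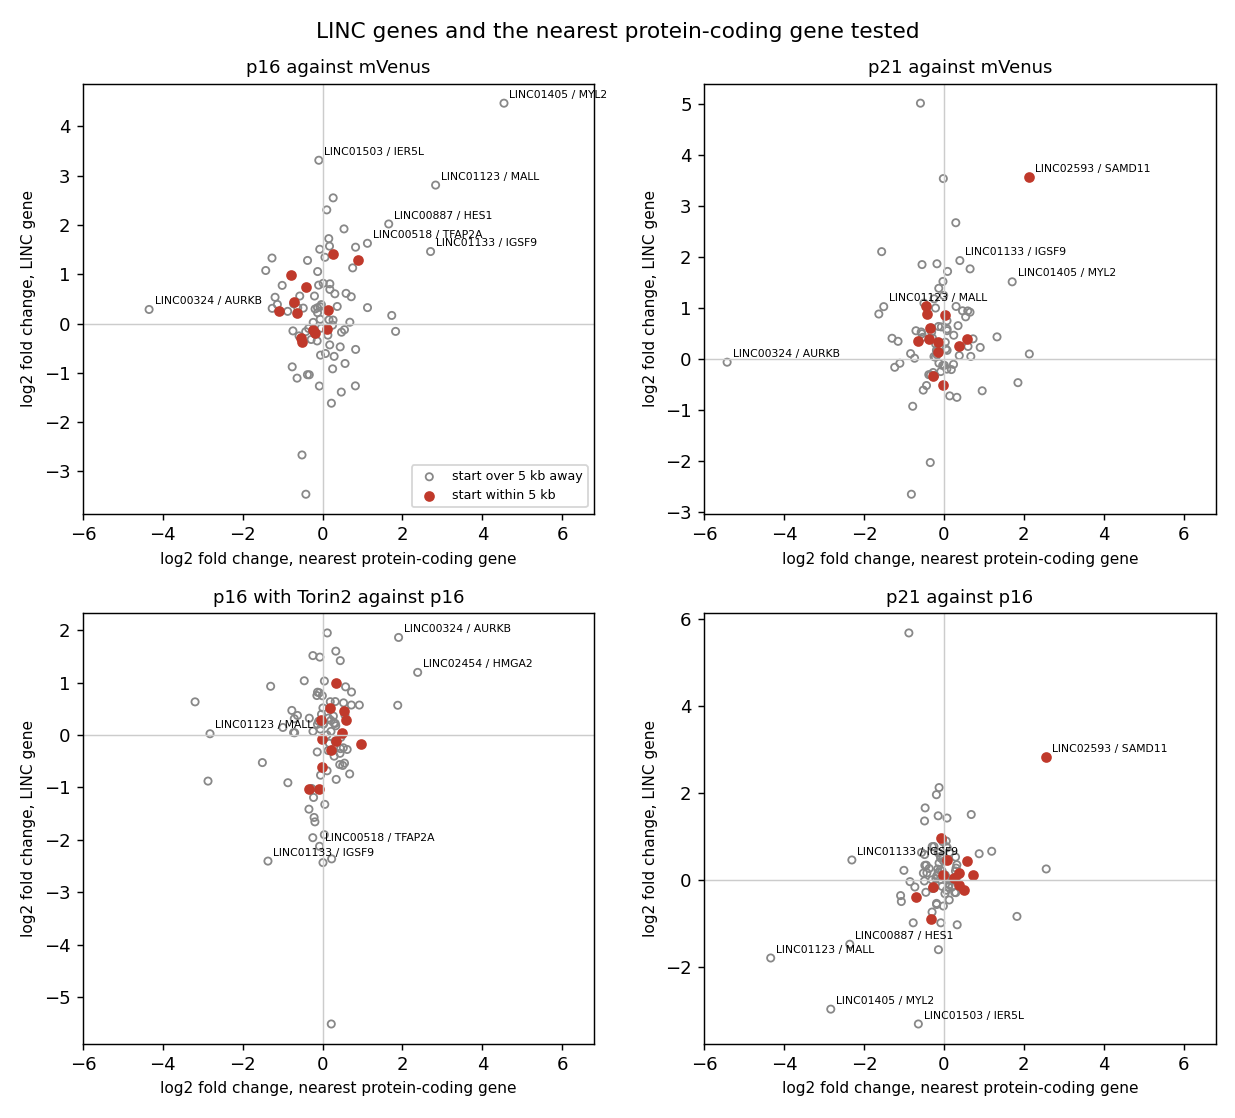
Log2 fold changes of the 94 LINC genes (y axis) and of the nearest protein-coding gene tested (x axis) in each comparison; filled points have starts within 5 kb. LINC01405 and MYL2 lie together in p16 against mVenus (4.47 and 4.54), LINC02593 and SAMD11 in both p21 comparisons, while LINC01503 (3.31) and its neighbour IER5L (-0.09) lie apart in p16 against mVenus.

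The nearest protein-coding start was a median of 59312.5 bases from that of the LINC gene, within 5000 bases for 13 genes, 10 of them divergent, and over 100000 bases away for 34. Over the 94 pairs, the fold changes of LINC gene and neighbour had Pearson's r of 0.338 and Spearman's rho of 0.152 in p16 against mVenus, 0.116 and 0.0938 in p21 against mVenus, 0.162 and 0.183 with Torin2, and 0.309 and 0.160 in p21 against p16. These are descriptions across genes measured in the same libraries. For 12134 pairs of neighbouring protein-coding genes r lay between 0.0892 and 0.138 and rho between 0.0973 and 0.112. The 94 pairs include LINC01405 with MYL2, at 4.47 and 4.54 in p16 against mVenus and -2.96 and -2.83 in p21 against p16. For the 13 close pairs r was 0.378, 0.751, 0.486 and 0.829, with rho of 0.209, -0.0549, 0.451 and 0.489. LINC02593 with SAMD11 is the farthest point of the p21 comparisons. LINC02593 reached the level threshold in p21 cells alone, so its values there, and these r values with them, are in part set by its choice. For 2601 pairs of protein-coding genes with starts within 5000 bases r was 0.2, 0.0782, 0.206 and 0.135 in the same comparisons. Their rho was 0.19, 0.124, 0.154 and 0.127.

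Neighbours also went apart. LINC01184, now SLC12A2-DT, starts 594 bases from the ion transporter gene SLC12A2 on the other strand. It rose by 0.22 ± 0.07 in p16 and 0.35 ± 0.07 in p21 cells against mVenus (log2, SE), where SLC12A2 fell by 0.63 ± 0.06 and 0.64 ± 0.06. Of the LINC genes and neighbours that both passed in p16 against mVenus, 23 of 41 pairs had the same direction, in p21 against mVenus 14 of 32, with Torin2 21 of 32, and in p21 against p16 12 of 21. These shares were 56.1%, 43.8%, 65.6% and 57.1%, beside 54.3%, 57.2%, 54.9% and 56.3% of the pairs of neighbouring protein-coding genes that both passed.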

How the data were processed

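Polyadenylated RNA was sequenced from 12 MCF10-A cultures with a stranded KAPA library kit, as the labels' protocols say. The authors deposited raw counts per gene name; per the file headers these came from featureCounts 1.6.3 on GENCODE 29 exons, with no strand, multimapping or read-pair option. The submitters' processing notes list HISAT2, Subread, FastQC 0.11.3, DESeq2 and, as genome build, GRCh38.p7. The authors' 3 tables of comparisons were not used.

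The LINC genes, lists and tests were chosen with earlier results of these data known. Counts of all 12 libraries (14504 genes after filterByExpr, TMM scaling) entered 1 fit with a coefficient per group in edgeR 4.0.16 under R 4.3.3, with 8 residual degrees of freedom; quasi-likelihood tests were two-sided, adjusted by Benjamini-Hochberg over all genes at 0.05, and the test was checked on simulated data. CPM are counts over library total. Genes named are the 10 highest per kilobase, up to 6 largest passing rises and falls per comparison, those at the threshold, those with shared exons, those with described names and those whose call an alternative ends. Copies were sought with blastn 2.17.0 among GENCODE 29 transcripts at 97% identity over at least 75 bases. Coordinates are GENCODE 29 on GRCh38, and start sequences are RefSeq's. Floors are 3 counts, and floors and intervals cover counting error only. Replicate numbers did not pair the libraries: deviations of same-numbered libraries had correlations of -0.117 to 0.0843. Alternatives were DESeq2 1.42.0, other scalings, no filter, other level thresholds, single pairs of groups, a replicate block and leaving out each library.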

Additional observations from a re-analysis of the deposited data

How the results depend on the processing

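The number of LINC genes called kept within 1.5 times its value under most alternatives. The shares of all genes called under the same alternatives are not given here. The counts below therefore do not show whether a shift concerns LINC genes in particular. In p16 against mVenus, 51 in all became 32 (22 higher, 10 lower) where 2 CPM was the level threshold, with 62 genes left to test, and 10 were lower under DESeq2's Wald test against 16. In p21 against mVenus 7 were lower under DESeq2's Wald test against 11. In p21 against p16 9 were lower at 2 CPM against 14. Leaving out each library in turn gave 43 to 47 calls in p16 against mVenus (30 to 34 higher, 13 to 15 lower), 39 to 45 in p21 against mVenus (31 to 35 and 8 to 11), 45 to 51 with Torin2 (24 to 29 and 20 to 24) and 35 to 41 in p21 against p16 (23 to 27 and 11 to 15). A fit with the replicate block gave 52, 47, 50 and 40 calls, and the block changed no call of a named gene. The alternative without the 8 LINC genes of copied or shared sequence was chosen after seeing the data and gave 48, 43, 46 and 38 calls.

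Of 117 called values of named LINC genes, 94 stayed called under every alternative run, 23 lost the call in at least 1, and none changed sign. LINC00888 in p21 against mVenus, not called, ran from -0.092 to 0.29 as libraries were left out, and LINC01503 from -0.83 to 0.38; the cause was not tested. LINC01405 in p21 against mVenus had 1.51 (adjusted p = 0.051 by edgeR's quasi-likelihood test) and 0.88 to 3.60 over all alternatives.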
